A study of Schizosaccharomyces pombe 972h- with 4 samples.

Results

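The genes described here are 5 genes of the Sre1 oxygen and sterol sensing pathway of the fission yeast S. pombe, sre1 (SPBC19C2.09), sre2 (SPBC354.05c), dsc1 (SPBC947.10), rbd2 (SPCC790.03) and nro1 (SPCC4B3.07), out of 4997 targets on the array. They were chosen by their place in the pathway, as far as the study's supplementary tables pair a systematic name with an array target, and 1646 of the targets carry a name in the tables used here. RNA came from wt cells (strain 972 h-) and from Ofd2Δ cells, an h- strain in which the gene of the dioxygenase Ofd2 (SPAP8A3.02c) is deleted and marked with KAN. Both strains were grown at exponential phase in yeast extract medium with glucose and supplements and kept for 90 min in normal oxygen (20%) or in hypoxia (below 1%, AnaeroGen system). Each of the 4 groups has 1 single-colour NimbleGen array, hybridised with RNA pooled from 2 independent experiments. A difference between arrays therefore has no replicate check, no test was possible and no p-values are given.

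S. pombe senses low oxygen partly through its sterols, because several steps of sterol synthesis consume molecular oxygen. The membrane-bound transcription factor Sre1, a relative of the mammalian sterol regulatory element binding proteins (SREBPs), is held in an inactive form and is cut when sterols or oxygen run low. Its released N-terminal part enters the nucleus and switches on genes for growth in low oxygen, among them sre1 itself. Stability of that fragment is set by Ofd1, a dioxygenase related in cofactor use to Ofd2, and by its inhibitor Nro1.

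All 70 spots of the 5 genes (7 probes of 60 bases in each of 2 blocks) lay above the 95th percentile of the random-sequence control spots on each of the 4 arrays. Control spots had medians of 112 to 126, and the median gene spot lay between 6597 and 7529 on 3 arrays and at 4009 on that of Ofd2Δ cells in hypoxia. This last array was scanned apart from the rest and holds 0 spots at 65000 or more, against 77 to 97 elsewhere. Effects of strain and of scan on the hypoxia values cannot be told apart. Within Ofd2Δ cells, effects of oxygen and of scan cannot be told apart either, which holds for each Ofd2Δ hypoxia ratio below. The strain labels could not be checked by the level of the deleted gene, for which no target is named. Levels below are linear intensity after background correction and quantile normalisation over the 4 arrays, given as the mean of both blocks. They were compared only within a gene, since probes of different genes differ in brightness.

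In wt cells, sre1 was the gene of the 5 that rose most in hypoxia, 1.51-fold from the probe intensities. rbd2 was 1.23 times its normal oxygen level, and sre2, nro1 and dsc1 lay between 0.916 and 1.06. At 1.5-fold, 1 of the 5 genes (sre1) was higher, against 0.820% of all targets, and 0 were lower, against 2.28%. At 2-fold, 0 of the 5 were higher, where 0.160% of all targets were, and 0 were lower, where 0.640% were. The median ratio of the 5 genes was 1.06 and that of all targets 1.02.

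From normal oxygen to hypoxia, the normalised level of sre1 went from 11913 to 17935 in wt cells and from 11935 to 15367 in Ofd2Δ cells. Both hypoxia levels were above both normal oxygen levels, and the normal oxygen levels of the strains were nearly equal. In wt the ratio was 1.48 in block 1 and 1.53 in block 2, which placed sre1 at percentile 99.3 of all targets, with 36 targets above it. The 7 probes gave ratios of 1.40 to 1.92, with an SD of 0.14 on the log2 scale, a technical spread within the arrays. Before any normalisation, each of the 14 spots was brighter in wt hypoxia than in wt normal oxygen, by 1.19 to 1.90 times. The rise was thus seen along the whole stretch that the probes sample, from position 1575 to 2616 of the target. The value lies so near the 1.5-fold limit that sre1 fell just under it without background correction or from block 1 alone.

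**Figure D1:**
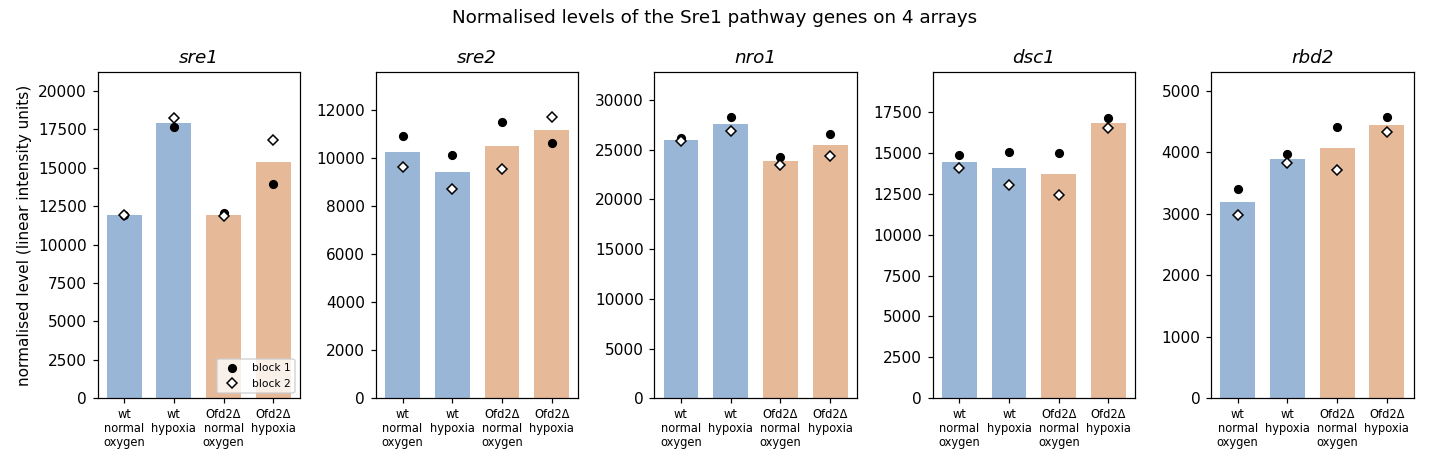
Normalised levels (linear intensity units) of the 5 Sre1 pathway genes, wt and Ofd2Δ, under either oxygen condition, 1 array per bar, with bars at the mean of both blocks and points at each block. The bar of sre1 goes from 11913 to 17935 in wt and from 11935 to 15367 in Ofd2Δ cells. For sre2, nro1 and dsc1, the normal oxygen and hypoxia bars of wt stay close to each other within each gene.

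In Ofd2Δ cells, the sre1 ratio was 1.29, at percentile 89.8, with 1.16 in block 1 and 1.42 in block 2. Probe ratios ran from 0.174 to 1.47, with an SD of 1.13 on the log2 scale, and 5 of the 7 were above 1. The lowest came from the probe at position 2421, whose block 1 spot read 445 on the Ofd2Δ hypoxia array against 5241 in block 2 and 10632 to 20460 on the other arrays. Leaving that probe out, a step chosen after its value had been seen, gave ratios of 1.34 for Ofd2Δ and 1.57 for wt cells. The strain quotient (Ofd2Δ ratio over wt ratio) was 0.856, and 0 of the 7 probes had a quotient above 1, with a median of 0.837 and a highest value of 0.939. This quotient also rests on the array scanned apart, and it was 0.937 in the deposited value table. None of the 5 genes passed the 1.5-fold limit of that quotient, against 2.70% of all targets.

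**Figure D2:**
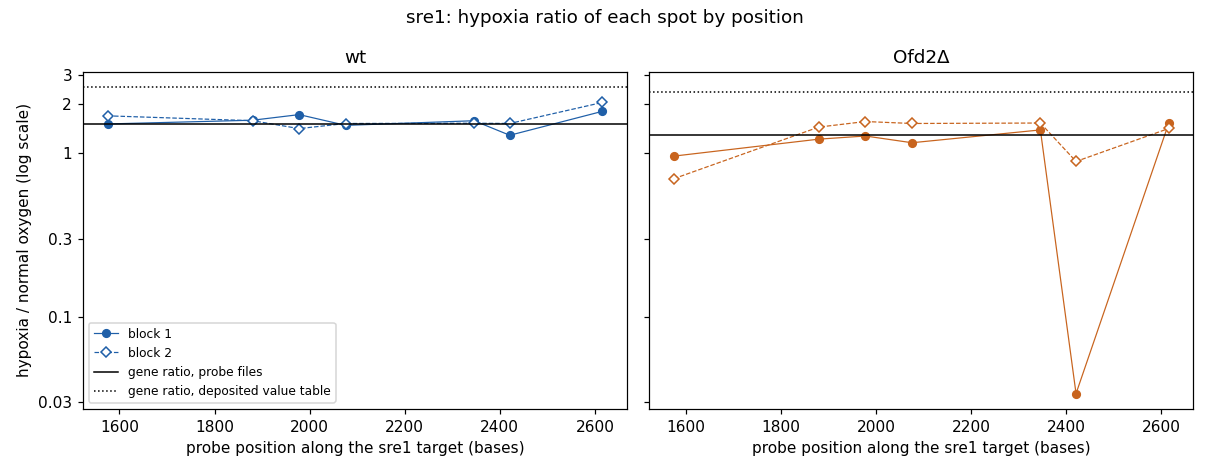
Hypoxia to normal oxygen ratio (log scale) of each sre1 spot by probe position along the target in bases, in wt and Ofd2Δ cells, with a point for each block, and lines at the gene ratio from the probe files (solid) and from the deposited value table (dotted). In wt all points lie above 1 and below the dotted line at 2.53, and in Ofd2Δ cells the block 1 spot at position 2421 lies far below the rest.

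The deposits hold 2 versions of these values, and for sre1 they disagree. In the table of normalised gene values that the authors deposited beside the probe files, wt cells have sre1 values of 10214 and 10439 (blocks 1 and 2) in normal oxygen and of 26333 and 25971 in hypoxia. For Ofd2Δ cells the values are 9796 and 10772, then 24829 and 23851. All 4 hypoxia values exceed all 4 normal oxygen values. The ratios from the table are 2.53 in wt and 2.37 in Ofd2Δ cells, so sre1 is the 1 gene of the 5 past 2-fold there, where 0.500% of all targets are in wt and 0.500% in Ofd2Δ cells. No sre1 spot in the wt probe files reached 2.53, the highest of the 14 normalised spot ratios being 2.04.

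Among these 5 genes, a gap of this size was seen for sre1 alone, and only in hypoxia. Once each array was centred on its median gap over all targets, the table and the probe files gave sre1 levels that differed by a factor of 1.01 (wt) and 1.00 (Ofd2Δ) in normal oxygen. In hypoxia the table was 1.69 times higher in wt and 1.86 times higher in Ofd2Δ cells, where the other 4 genes stood at 0.890 to 0.979 times their probe file levels. For those genes the wt ratios of both sources were alike, 0.921 against 0.916 for sre2, 1.06 against 1.06 for nro1, 1.20 against 1.23 for rbd2 and 0.972 against 0.971 for dsc1. Over all 4997 targets, the log2 wt ratios of both sources differed with a robust SD (scaled median absolute deviation) of 0.039, and 34 targets (0.680%) were apart by at least 1.3-fold, a limit set after the values had been seen. sre1 ranked at 15 by the size of this gap. Of the 25 targets at least 2-fold higher in wt in the table, 17 were among these 34, and all 17 were below 2-fold from the probe files. The alternatives run on the probe files gave sre1 wt ratios between 1.48 and 1.57, and none came near the table's value. In Ofd2Δ cells the sources were further apart, with a robust SD of 0.231 and 647 targets (12.9%) past the 1.3-fold limit. There sre1 ranked at 56, so its gap stood out less than in wt. The cause of the gap was not tested.

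**Figure D3:**
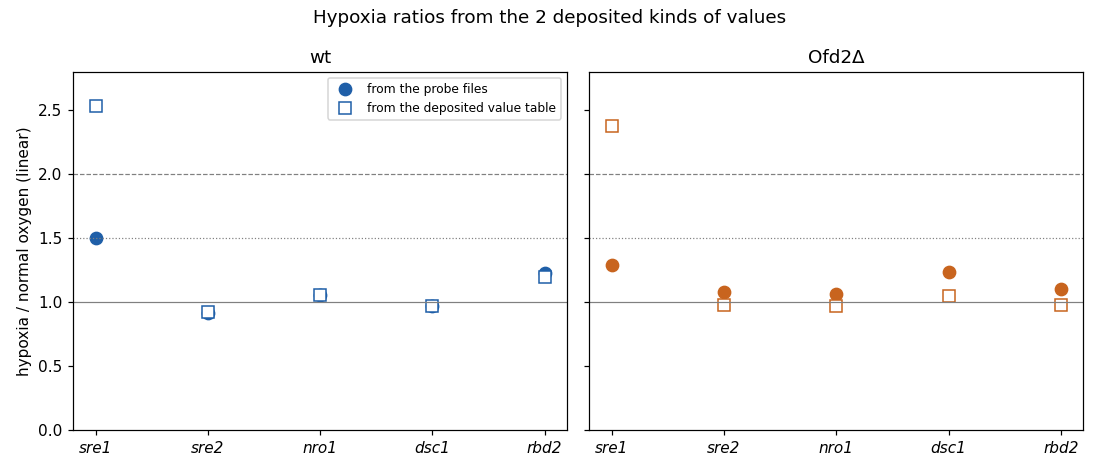
Hypoxia to normal oxygen ratio (linear axis) of the 5 genes in wt and Ofd2Δ cells, computed from the probe files (circles) and from the deposited value table (squares), with lines at 1, 1.5 and 2. In wt the symbols coincide or nearly so for 4 genes and part for sre1, at 1.51 and 2.53.

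sre2 encodes another SREBP homologue of S. pombe. The level was 10265 in normal oxygen and 9407 in hypoxia for wt cells, with 10519 and 11185 for Ofd2Δ cells. The lowest value was in wt hypoxia and the highest in Ofd2Δ hypoxia. In wt the ratio was 0.916 (blocks 0.926 and 0.905), and 0 of 7 probes were above 1, with a log2 SD of 0.063. In Ofd2Δ cells the ratio was 1.08, with blocks at 0.926 and 1.23 on either side of 1 and a log2 SD of 0.44 over the probes. The sre2 ratio thus had no settled direction in Ofd2Δ cells. Unlike sre1, this SREBP gene was slightly lower in wt hypoxia, at percentile 17.9 of all targets, and on each probe by the mean of both blocks. In block 1 alone, the probes at positions 1604 and 1752 had wt ratios of 1.10 and 1.01.

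dsc1 encodes a subunit of the Dsc E3 ubiquitin ligase, the Golgi complex that is needed for cleavage of Sre1. Levels of dsc1 were 14450 and 14046 for wt cells (normal oxygen, then hypoxia) and 13689 and 16822 for Ofd2Δ cells. Only the Ofd2Δ hypoxia value stood above the others. The wt ratio was 0.971, with blocks at 1.01 and 0.927. The Ofd2Δ ratio was 1.24 (1.14 and 1.33), yet only 4 of 7 probes were above 1 and the value table gave 1.05. Its strain quotient of 1.27 was the highest of the 5, and it rests on the array that was scanned apart. With arrays scaled to a common median, the direction turned, to 0.989 for the quotient, 0.955 for the Ofd2Δ hypoxia ratio and 0.960 for Ofd2Δ over wt in hypoxia.

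rbd2 encodes the rhomboid protease that takes part in cutting Sre1. Its level was 3185 in normal oxygen and 3899 in hypoxia for wt cells, with 4065 and 4451 for Ofd2Δ cells. wt cells in normal oxygen had the lowest value, and the other 3 arrays lay above it. The wt hypoxia ratio was 1.23 (1.17 and 1.29), at percentile 94.5, and all 7 probes were above 1, at 1.15 to 1.27. In Ofd2Δ cells the ratio was 1.10 from the probe files and 0.980 from the value table, so the direction there depended on the source.

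rbd2 also differed most between the strains in normal oxygen. The Ofd2Δ to wt ratio was 1.27 (blocks 1.30 and 1.25), and 13 of the 4997 targets had a higher ratio. All 7 probes were above 1, at 1.01 to 1.34, and the lowest, at position 652, was at 0.952 in block 2. The value table also gave 1.27, at percentile 99.8. The other 4 genes lay between 0.918 (nro1) and 1.02 (sre2), with sre1 at 1.00. None of the 5 reached 1.5-fold in normal oxygen, where 0.300% of all targets did in either direction. As each strain has 1 array, a spread between cultures of 1 strain cannot be set beside this ratio.

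nro1 encodes the nuclear protein that binds Ofd1 and keeps it from promoting breakdown of the Sre1 fragment. The level was 25987 in normal oxygen and 27526 in hypoxia for wt cells, and 23856 and 25452 for Ofd2Δ cells. The values of the 4 arrays were close, with Ofd2Δ cells lower than wt in each condition. Hypoxia ratios were 1.06 in wt and 1.07 in Ofd2Δ cells. The Ofd2Δ ratio had no settled direction, being below 1 in 4 of 8 alternatives, at 0.752 with median scaling, 0.944 with normalisation within the strain, 0.944 from the median of the probe ratios and 0.968 from the value table. In Ofd2Δ cells 3 of 7 probes were above 1, against 6 of 7 in wt. From the start of the target to its end, the 3 first probes gave 1.14 to 1.22 in Ofd2Δ cells and the 3 last gave 0.706 to 0.786, while in wt the 7 probes stayed between 0.964 and 1.09.

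**Figure D4:**
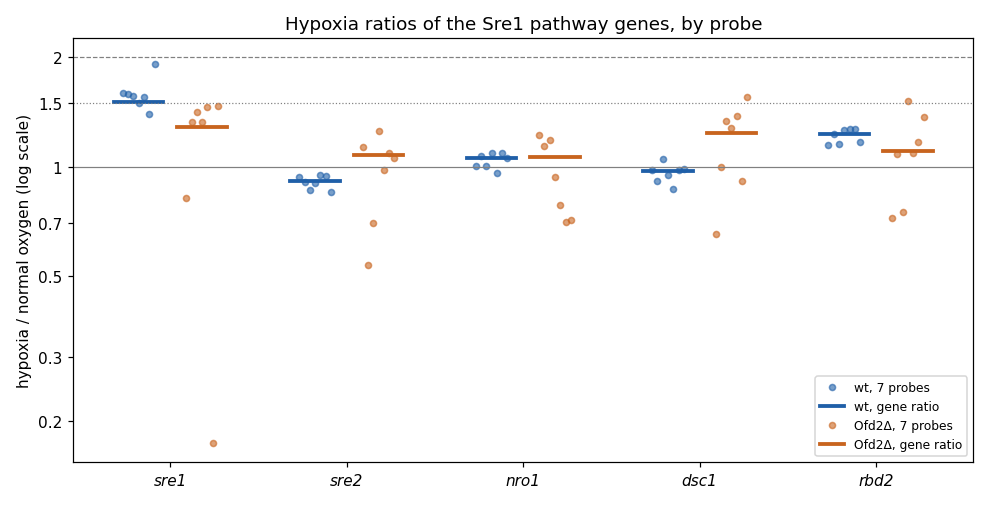
Hypoxia to normal oxygen ratio (log scale) of the 7 probes of each gene (points, mean of both blocks, in order along the target from left to right) and of the gene (bars) in wt and Ofd2Δ cells, with lines at 1, 1.5 and 2. Points of wt lie close together, with log2 SDs of 0.063 to 0.14, and those of Ofd2Δ cells spread widely, with SDs of 0.35 to 1.13.

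Across the 5 genes in Ofd2Δ cells, the median hypoxia ratio was 1.10 and that of all targets 1.02. In the value table the order was the other way, with 0.982 for the 5 genes and 1.02 for all targets. At 1.5-fold, 0 of the 5 were higher, against 3.28% of all targets, and 0 were lower, against 2.88%. At 2-fold the 5 genes also gave 0 in each direction, against 0.440% higher and 1.00% lower among all targets. Between the strains in hypoxia the ratios (Ofd2Δ over wt) were 0.856 for sre1, 0.924 for nro1, 1.14 for rbd2, and 1.20 for both sre2 and dsc1, and 0 of the 5 passed 1.5-fold, against 2.34% of all targets. The comparisons share arrays, so they are not independent of each other.

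**Figure D5:**
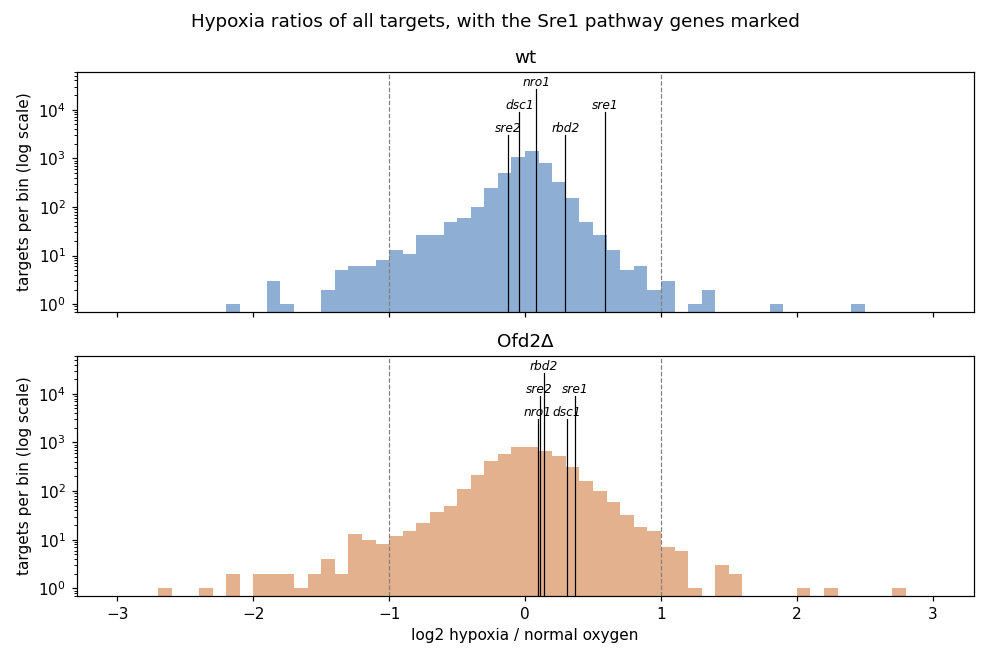
Number of targets (log scale) by log2 hypoxia to normal oxygen ratio in bins of 0.1, in wt and Ofd2Δ cells, with the 5 genes marked and dashed lines at 2-fold. In wt sre1 lies in the upper tail at percentile 99.3 and sre2, dsc1 and nro1 in the main body, and in Ofd2Δ cells all 5 lie in the main body.

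Of 14 genes listed for the pathway, 8 were named, with median ratios of 1.02 for wt and 1.07 for Ofd2Δ cells. Beside sre1, 0 of them passed 1.5-fold in either direction in wt, and 0 did in Ofd2Δ cells. Among all targets 0.820% were higher and 2.28% lower in wt, and 3.28% and 2.88% in Ofd2Δ cells. Beside these shares, a count of 0 among so few genes does not set the genes other than sre1 apart. ins1, the homologue of the mammalian INSIG genes, had a wt ratio of 0.918 and an Ofd2Δ ratio of 0.942. dsc5, which encodes another Dsc subunit, had 0.988 and 1.01. ubc4, the gene of a ubiquitin-conjugating enzyme, had 1.09 and 1.06. The other 6 genes (scp1, dsc2, dsc3, dsc4, cdc48 and ofd1) were not analysed here.

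The enzymes whose steps use oxygen in sterol, heme and lipid synthesis include known targets of Sre1, and 8 of the 10 listed were named. The 8 had a median of 1.16 for wt and 1.17 for Ofd2Δ cells, against 1.02 for all targets in either strain. Of them, 3 in each strain were at least 1.5-fold higher, 1 of these (erg31) was at least 2-fold higher, and 0 were lower by 1.5-fold. Among all targets 0.820% (wt) and 3.28% (Ofd2Δ) were higher at 1.5-fold, and 0.160% and 0.440% at 2-fold. The sterol desaturase gene erg31 had the highest wt ratio, 2.55, with 2.26 in Ofd2Δ cells, and the fatty acid desaturase gene ole1 the lowest wt ratio, 1.02, with 1.00 in Ofd2Δ cells. By the deposited gene values 7 of the 8 passed 2-fold in each strain, with medians of 2.16 and 2.12, where 0.500% of all targets passed in each strain. The gap between the sources was not of 1 kind in this list. For erg5 in wt the table was 1.03 times the probe file level in normal oxygen and 2.04 times in hypoxia, whereas for erg11 it was 0.549 and 1.07 times (both genes picked as examples after their values had been seen). For 6 of the 8, the name came solely from the study's lists of genes past 2-fold in its own values from these arrays. Their place past 2-fold in the deposited values was therefore fixed in advance. Counts, medians and directions of this list, from either source, are not independent evidence. Of the 2 genes named otherwise, erg1 had 1.68 (wt) and 1.59 (Ofd2Δ) from the probe files, and 2.22 and 2.11 from the table. For ole1 the table gave 1.03 and 0.845.

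Among 1645 other named targets, those most like sre1 over the 4 arrays (smallest Euclidean distance between centred log2 levels) were aim18, osm1, nse5, coq7 and wtf25. Their distances were 0.0719, 0.116, 0.132, 0.142 and 0.145. aim18, the nearest, had ratios of 1.58 (wt) and 1.33 (Ofd2Δ), and osm1, which encodes a fumarate reductase, 1.55 and 1.42. nse5 had 1.40 and 1.34, coq7 1.48 and 1.26, and wtf25 1.32 and 1.22. Among all targets, unnamed ones included, aim18 ranked at 2 and osm1 at 7 by distance. aim18 and osm1 carry a name only through lists of genes past 2-fold in the study's own values from these arrays. Their value table ratios were therefore bound to be high and are not given as support. Their nearness to sre1 and their probe file ratios are not independent evidence either. The genes next to sre1 on the chromosome did not share its rise: prp38, a splicing factor gene, had 1.01 in wt and SPBC19C2.10 had 0.917.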

How the data were processed

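Per the file headers, the deposited probe files hold the intensity of each probe, extracted with NimbleScan 2.4.31 and neither background-corrected nor normalised. The authors also deposited a table of normalised gene values, as linear intensity in whole numbers for 2 blocks per target, for which the labels name RMA, with the version not given in the sources used here. Scale and centring of that table stay unknown beyond its column medians of 5447, 5379, 5440 and 5726 (wt and Ofd2Δ in normal oxygen, then wt and Ofd2Δ in hypoxia). Its rows were matched to targets by their order, which the 1694 rows held of the supplementary gene table bear out with identical values in all 1694.

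Main values came from the probe files. All spots, controls included, entered the RMA convolution background, written out in R 4.3.3. limma 3.58.1 was used only for the normexp alternative. The 4 arrays were then quantile-normalised on their gene spots, and the log2 values of each target's probes were reduced to 1 value per block by median polish (Python 3.11.15, numpy 2.4.6, pandas 2.3.3, matplotlib 3.10.9). Ratios were taken per block and averaged. The steps were tested on simulated arrays with known changes and equal probe noise on each array. That setting does not mimic the wider probe spread of the Ofd2Δ hypoxia ratios. Genes were called at 1.5-fold and 2-fold, and with 1 array per group no test was run. Read depth does not apply to array signal, and block and probe spreads are technical. Names came from the supplementary tables and RefSeq's gene table for assembly ASM294v3 (names and neighbours alone), in which 1543 of the named targets were found. The 5 genes, all lists and the rule for named genes (the 5 genes, the named pathway genes, the ends of the enzyme list, and the 5 targets nearest to sre1) were chosen with earlier results of these data known. Alternatives were background correction, normalisation, probe summary, single blocks, dim targets left out and the value table. Promoter and probe sequences were not analysed here.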

Additional observations from a re-analysis of the deposited data

How the results depend on the processing

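No paired analysis was possible because each group has 1 array, and for the same reason no replicate could be left out. Among the 5 genes only the wt ratio of sre1 was past 1.5-fold, and its direction held under the alternatives run. Some ratios nearer 1 changed direction. In Ofd2Δ cells these were the hypoxia ratios of nro1, sre2, dsc1 and rbd2. In wt cells the dsc1 ratio went from 0.971 to 1.01 with block 1 alone. Between the strains in normal oxygen, sre1 went to 0.994 and sre2 to 0.993 with block 2 alone, and dsc1 to 1.01 with block 1 alone. The strain quotients of nro1 and dsc1 and the dsc1 strain ratio in hypoxia also crossed 1. The wt ratio of sre1 was 2.53 from the deposited value table, against 1.48 to 1.57 under the alternatives run on the probe files. At 1.5-fold in wt, the 5 genes gave 0 higher without background correction and 0 from block 1 alone, against 1 in the values reported. From the value table, 1 of the 5 (sre1) was at least 2-fold higher in wt, and in Ofd2Δ cells 1 was at least 1.5-fold and 1 at least 2-fold higher. When arrays were only scaled to 1 median, without quantile normalisation, nro1 had an Ofd2Δ hypoxia ratio of 0.752 and a strain quotient of 0.716, against 1.07 and 1.01. Under that scaling the sre1 ratio in Ofd2Δ cells was 1.03, at percentile 55.2, its strain quotient 0.674 and its wt ratio 1.53. The wt ratio of rbd2 was 1.17 from block 1 alone and 1.29 from block 2 alone. The causes were not tested. Counts over all targets also moved. Higher at 1.5-fold in wt were 41 targets, against 27 without background correction and 19 with dim targets left out. Higher at 2-fold in wt were 8, against 4 without background correction, 5 with normexp, 5 with median scaling, 3 without dim targets and 25 in the value table. In Ofd2Δ cells 164 targets were higher at 1.5-fold, against 103 without background correction, 435 with median scaling and 50 without dim targets, and 22 at 2-fold, against 14, 122 and 9 in the same order. Lower at 1.5-fold were 144, against 352 with median scaling. Without dim targets, lower counts were 49 of 114 at 1.5-fold and 11 of 32 at 2-fold in wt, and 75 of 144 and 21 of 50 in Ofd2Δ cells.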

Other observations

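The deposited value table's column for Ofd2Δ cells in hypoxia correlated at r = 0.985 across 4997 targets (log2, described without a test, targets not being independent) with the probe file of the same sample and at r = 0.990 with that of wt cells in hypoxia. The other 3 columns correlated at 0.998 with the probe file of their own sample. In Ofd2Δ cells 647 targets had hypoxia ratios that were at least 1.3-fold apart between the sources, against 34 in wt cells.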
